A study of Mus musculus with 2 samples.

Results

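A set of 10 genes of the actin cytoskeleton was followed by name in single cells of a mouse pancreatic cancer line: Acta2 (ENSMUSG00000035783), Actb (ENSMUSG00000029580), Actg1 (ENSMUSG00000062825), Tagln (ENSMUSG00000032085), Tagln2 (ENSMUSG00000026547), Cnn2 (ENSMUSG00000004665), Myl9 (ENSMUSG00000067818), Tpm1 (ENSMUSG00000032366), Tpm2 (ENSMUSG00000028464) and Actn1 (ENSMUSG00000015143). They were matched by symbol, and all 10 were found among the 33696 features of the deposited matrix. The cells were KPCY 6419c5, a line of pancreatic ductal adenocarcinoma from a genetically engineered mouse model of that tumour. Per the labels, the cells had been transfected with Cas12a-ABE, the adenine base editor of a lineage recorder named BASELINE, sorted as single cells and expanded. Clones 76 and 84 were mixed in equal numbers after 19 days of editing and sequenced as 1 droplet library with 3′ chemistry. Each clone therefore descends from 1 sorted cell, both had received the editor, and the library has no unedited control and no replicate. A second sample of 5 clones was not analysed here.

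The groups of cells compared were set by marker counts, not by a clone label, and are called A cells and B cells. A UMI (unique molecular identifier) stands for 1 captured RNA molecule. A cells had at least 2 UMIs of Pde10a, Plcb1, Galnt18, Arhgap15 and Ceacam1 together and at least 3 times the UMIs of the B genes. B cells met the mirrored rule with S100a7a, Rgs20, Hs6st2, Ccbe1, Ctse and Mal. None of the 10 genes entered the rule. Of 22178 barcodes with 500 to 23576 UMIs each, 21361 passed the cell filter, and 7816 were A cells and 8936 B cells. The median depth was 4699.5 UMIs in A cells and 5440.5 in B cells, and the median mitochondrial share was 3.19% and 1.89%. At least 2 UMIs of the markers of both groups, without 3 times as many of either, were seen in 464 cells. Too few markers were seen in 4145 cells, and neither kind of cell was compared. Cells of 1 library are not replicates, so no test between groups was possible. Intervals (95%) are exact Poisson intervals for summed UMIs and exact Clopper-Pearson intervals for shares, and they cover counting error only.

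Actin monomers polymerise into filaments, on which myosin pulls when its regulatory light chain is phosphorylated. Tropomyosins lie along the filament and control access to it, calponins and transgelins bind and stabilise it, and alpha-actinins tie filaments into bundles and to adhesions. Beta and gamma actin occur in nearly every cell type, whereas Acta2 (smooth muscle alpha actin), Tagln and Myl9 are best known from smooth muscle, pericytes and activated fibroblasts, including the myofibroblasts around pancreatic tumours. Many of these genes are transcribed through serum response factor (SRF) and its coactivators, the myocardin-related factors, which are released when monomeric actin is used up and which bind with SRF at CArG boxes.

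Promoters are shown because several of the genes varied together from cell to cell, as described further on. RefSeq (GRCm38.p6) gave a promoter for 8 of the 10 genes, read as the 250 bases before the start of transcription. The counts were made on another build (GRCm39, per the submitters' processing notes), so these positions serve the sequence alone. The search covered the CArG box, which is CC and GG around a core of A and T, the same box with 1 core base changed, and the MCAT motif, CATTCC, known for TEAD factors, all on both strands. Capitals mark the matches, and 0 of the matches overlapped another motif. The sequences of Acta2, Myl9, Actg1, Cnn2 and Tpm1 follow, 5′ to 3′ on the strand of the gene.
Acta2, chr19:34255374-34255623, minus strand: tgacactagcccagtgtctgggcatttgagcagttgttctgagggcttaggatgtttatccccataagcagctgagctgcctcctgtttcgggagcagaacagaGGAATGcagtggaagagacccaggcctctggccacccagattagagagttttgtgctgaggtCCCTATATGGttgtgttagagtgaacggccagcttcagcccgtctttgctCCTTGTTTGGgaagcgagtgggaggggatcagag
Myl9, chr2:156775214-156775463, plus strand: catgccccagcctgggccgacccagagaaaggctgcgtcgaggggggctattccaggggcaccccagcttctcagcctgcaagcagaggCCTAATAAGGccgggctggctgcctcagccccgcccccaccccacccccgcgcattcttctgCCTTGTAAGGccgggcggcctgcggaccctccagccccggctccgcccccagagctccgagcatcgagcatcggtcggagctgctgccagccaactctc
Actg1, chr11:120348496-120348745, minus strand: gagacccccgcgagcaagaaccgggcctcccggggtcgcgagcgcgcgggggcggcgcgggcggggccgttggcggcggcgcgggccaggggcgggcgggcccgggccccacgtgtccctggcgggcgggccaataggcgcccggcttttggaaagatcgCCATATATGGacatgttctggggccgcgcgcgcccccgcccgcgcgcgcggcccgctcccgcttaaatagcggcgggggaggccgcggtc
Cnn2, chr10:79988350-79988599, plus strand: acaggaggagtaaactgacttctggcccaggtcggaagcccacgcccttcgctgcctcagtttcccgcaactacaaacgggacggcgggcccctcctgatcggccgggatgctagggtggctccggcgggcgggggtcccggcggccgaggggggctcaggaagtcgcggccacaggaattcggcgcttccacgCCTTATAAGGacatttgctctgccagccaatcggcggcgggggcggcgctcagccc
Tpm1, chr9:67049214-67049463, minus strand: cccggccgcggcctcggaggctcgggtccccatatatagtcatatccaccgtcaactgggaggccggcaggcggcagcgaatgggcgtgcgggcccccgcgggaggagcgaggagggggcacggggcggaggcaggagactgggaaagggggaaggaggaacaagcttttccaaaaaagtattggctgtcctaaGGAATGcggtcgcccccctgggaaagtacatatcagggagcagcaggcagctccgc
Positions are counted back from the start of transcription, the base before it being -1. Acta2 held MCAT at -146 to -141 and changed CArG boxes at -84 to -75 and -34 to -25. Myl9 held a CArG box at -161 to -152 and a changed one at -99 to -90. Actg1 held a CArG box at -90 to -81 and Cnn2 one at -56 to -47, whereas Tpm1 held MCAT alone, at -56 to -51. Tagln2 held MCAT at -118 to -113 and at -80 to -75, and none of the motifs was found in the windows of Tpm2 and Actn1. A CArG box was thus present in 3 of 8 windows, against 1.47% of 32851 promoters of the same length. Either form of the box was in 4 of 8, against 8.59%, and MCAT in 3 of 8, against 12.6%. A match describes letters and says nothing of binding.

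The cytoplasmic actins were seen in almost every cell. Actb was higher in B cells, and Actg1 differed little between the groups. Actb, which encodes beta actin, had 4402 CPM (counts per 1000000 UMIs) in A cells and 6358 CPM in B cells. The 1.44-fold higher level in B cells (interval 1.44 to 1.45) was the largest ratio towards B cells among the 10 genes. Actg1, which encodes gamma actin, had 2498 CPM in A cells and 2410.5 CPM in B cells, a ratio of A over B of 1.04 (1.03 to 1.04). Over the 6254 genes tested (at least 20 CPM as the mean of both groups) the median log2 ratio was 0.13, so against the median gene Actg1 lay slightly towards B cells. With each cell thinned to 3000 UMIs, the median cell held 12 Actb UMIs among A cells and 19 among B cells. It held 6 and 7 Actg1 UMIs. The Actb level carries an uncertainty that was not found for the others in 1 comparison of transcript ends. Of the 31-base words in the last 400 bases of its transcript, 33.2% also occur in other annotated genes, against 0% for the other 9. Only exact matches to the longest coding transcript of each gene were sought, and not in the annotation of the counts.

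Acta2 set the groups apart most among the genes of the set at the minimum level. It had 144 CPM in A cells (5790 UMIs, interval 140.1 to 147.5) and 5.89 CPM in B cells (311 UMIs, 5.26 to 6.59). The level in A cells was 24.4-fold that in B cells (21.8 to 27.4), a log2 ratio of 4.61. After thinning, an Acta2 UMI was seen in 19.7% of A cells (18.8 to 20.6%) and 0.918% of B cells (0.729 to 1.14%), and without thinning in 25.1% and 1.84%. Neither group is a cell type known to lack these genes, so the share that free RNA gives could not be read from this library. Acta2 passed the minimum level only through the A cells.

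Tagln and Myl9, the other genes best known from smooth muscle, were rare and lay on the same side. Tagln, an actin-binding protein also called SM22, had 79 UMIs in A cells (1.96 CPM) and 3 UMIs in B cells (0.0568 CPM), a ratio of 34.5 with an interval of 11.4 to 171. Myl9, a regulatory light chain of myosin II, had 7.35 CPM (296 UMIs) and 0.701 CPM (37 UMIs), a ratio of 10.5 (7.43 to 15.2) and a log2 ratio of 3.39. Without the barcodes that the doublet caller Scrublet marked, B cells held 24 Myl9 UMIs and the log2 ratio was 3.99, and in cells with 0 UMIs of the mitosis list, where B cells held 2, it was 4.44. Among B cells cut into 3 sets of near equal size by depth, Myl9 had 0.162, 0.553 and 1.08 CPM from the shallowest to the deepest. After thinning, 1.93% of A cells and 0.102% of B cells held a Myl9 UMI (3.13% and 0.313% without thinning). The shares were 0.513% and 0.0227% for Tagln (0.704% and 0.0336% without thinning). Both genes were under the minimum level, so they are given by their counts and enter no count of genes called.

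**Figure D1:**
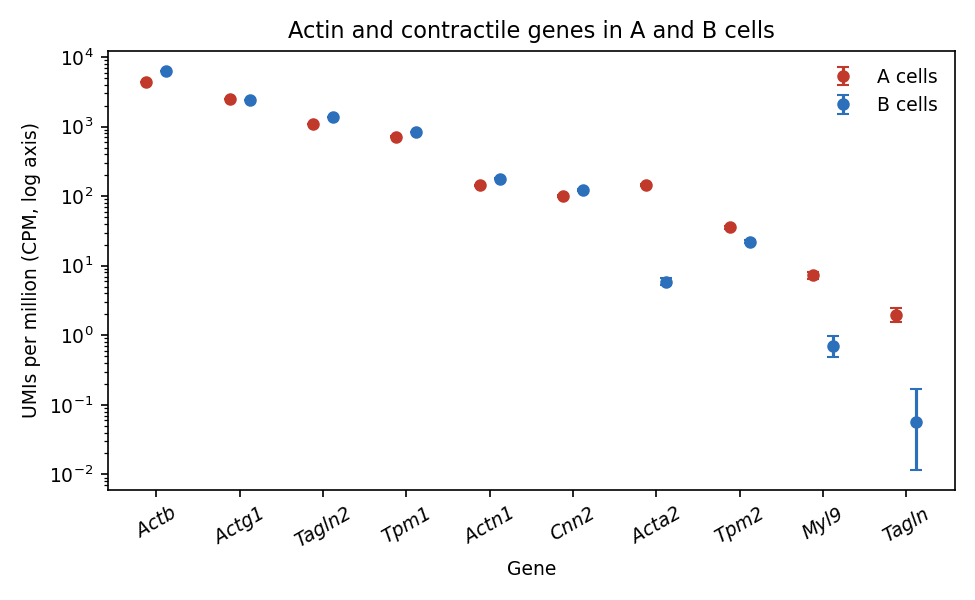
Levels of the 10 genes (log axis, CPM) in A cells (red) and B cells (blue), with exact Poisson intervals. Acta2, Myl9 and Tagln lie far higher in A cells, whereas the other 7 genes differ by at most 1.598-fold between the groups.

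The tropomyosins went in opposite directions. Tpm1 had 719 CPM in A cells and 835 CPM in B cells, 1.16-fold higher in B cells (1.14 to 1.18). Tpm2 had 35.6 CPM and 22.3 CPM, 1.598-fold higher in A cells (1.48 to 1.73). After thinning, Tpm1 was seen in 82.6% of A cells and 88.6% of B cells, and Tpm2 in 10.03% and 6.58%. Without thinning the shares were 91.2% and 96.9% for Tpm1 and 16.02% and 11.8% for Tpm2.

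The remaining filament-binding genes were all moderately higher in B cells. Tagln2, the transgelin of non-muscle cells, had 1097 CPM in A cells and 1379 CPM in B cells (1.26-fold). Cnn2, a calponin of non-muscle cells, had 99.3 and 123 CPM (1.24-fold, 1.19 to 1.29). Actn1, the alpha-actinin of stress fibres and adhesions, had 143 and 179 CPM (1.26-fold, 1.21 to 1.30). After thinning, a UMI was seen in 23.9% of A cells and 29.8% of B cells for Cnn2 and in 33.7% and 40.3% for Actn1, and without thinning in 35.6% and 47.9% and in 48.7% and 61.2%. Tagln and Tagln2 thus went opposite ways.

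A difference was called where it reached 2-fold. Of the 8 genes of the set at or above the minimum level, 1 (Acta2) was called higher in A cells, where 7.26% of all tested genes were, and 0 were called higher in B cells, where 5.58% were. The median log2 ratio of the 8 was -0.26, against 0.13 over all tested genes. When ratios were centred on the median gene, the shares of all genes were 5.66% and 6.86%, and Actg1 turned to -0.08. Cnn2 turned as well, from -0.30 to 0.06, among the cells with 0 UMIs of the mitosis list (663 A cells and 862 B cells).

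Within A cells Acta2 was unevenly spread. In thinned cells its variance was 3.82 times its mean, where Poisson counting alone gives a value near 1, and for Actg1 the ratio was 3.64, for Actb 2.17 and for Tpm2 1.04. The tenth of A cells with most Acta2 held 76.9% of its UMIs. That share depends on the level of a gene, and for the rarer Tpm2 it was 99.75%. For Actn1, with a mean of 0.423 UMIs per thinned cell against 0.419 for Acta2, it was 44.1%. Of 7406 thinned A cells, 1458 held at least 1 Acta2 UMI, 340 at least 3, 132 at least 5 and 25 at least 10, with a maximum of 23. Of 8827 thinned B cells, 81 held at least 1 and 6 at least 3.

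**Figure D2:**
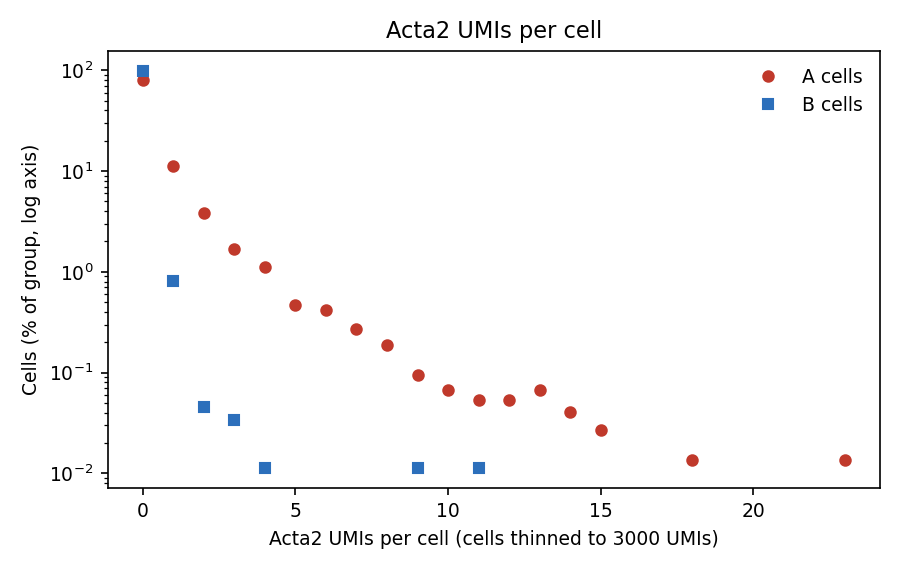
Share of A cells (red) and B cells (blue) with each number of Acta2 UMIs, after thinning to 3000 UMIs per cell (share on a log axis). A cells reach 23 UMIs and 340 of them hold 3 or more, whereas 6 B cells do.

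Other values moved with the Acta2 counts of B cells. An A marker UMI was seen in 28% of the 75 B cells with 1 or 2 Acta2 UMIs and in 3 of the 6 with more, against 4.06% of B cells with none. The rule that set the B cells limits their A marker UMIs, so these shares describe only barcodes that passed it. Scrublet marked 22 of the 81 B cells with Acta2 (27.2%) and 2.08% of the others. Without the marked barcodes the log2 ratio of A over B was 5.15 in place of 4.61. The B cell level was also 1.76, 3.05 and 12.96 CPM in the cells with the lowest, middle and highest mitochondrial shares, cut into 3 equal sets, and the log2 ratio of A over B was 6.72 among the lowest and 3.16 among the highest. Cut in the same way by depth, the B cell level was 2.03, 2.70 and 10.02 CPM, and the log2 ratio of A over B was 5.96 among the shallowest cells and 4.004 among the deepest.

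Among A cells, those with much Acta2 also held more of the other 9 genes. The 340 A cells with at least 3 Acta2 UMIs were set beside the 5948 with none, at median depths of 4895.5 and 4757.5 UMIs and mitochondrial shares of 2.97% and 3.19%. Tagln had 27.5 CPM (28 UMIs) against 0.336 CPM (6 UMIs), a ratio of 81.6 (33.2 to 241). Myl9 had 52.9 against 4.09 CPM, a ratio of 12.9 (8.93 to 18.7). These are the lightly expressed smooth muscle genes, and they stood farthest apart.

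Tpm1 followed with 1531 against 626 CPM, a ratio of 2.45 (2.32 to 2.58). Tpm2 had a ratio of 1.97 (1.504 to 2.53), Cnn2 1.75, Actn1 1.52 and Tagln2 1.496. The cytoplasmic actins differed least, with 5915 against 4197 CPM for Actb (1.41-fold) and 1.27-fold for Actg1. Of the 8 other genes of the set at the minimum level, 2 (Myl9 and Tpm1) were called higher, where 0.595% of all 6386 tested genes were. None was called lower, where 0.767% were. Myl9 passed the minimum only through the cells with much Acta2. The median log2 ratio of the 8 was 0.71, against -0.02 over all genes.

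The 1118 A cells with 1 or 2 Acta2 UMIs lay between these groups. Tpm1 had 908 CPM there, Myl9 10.7, Tagln 3.28 and Actb 4741 CPM. The order of the 3 classes was the same for each of the 9 genes.

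**Figure D3:**
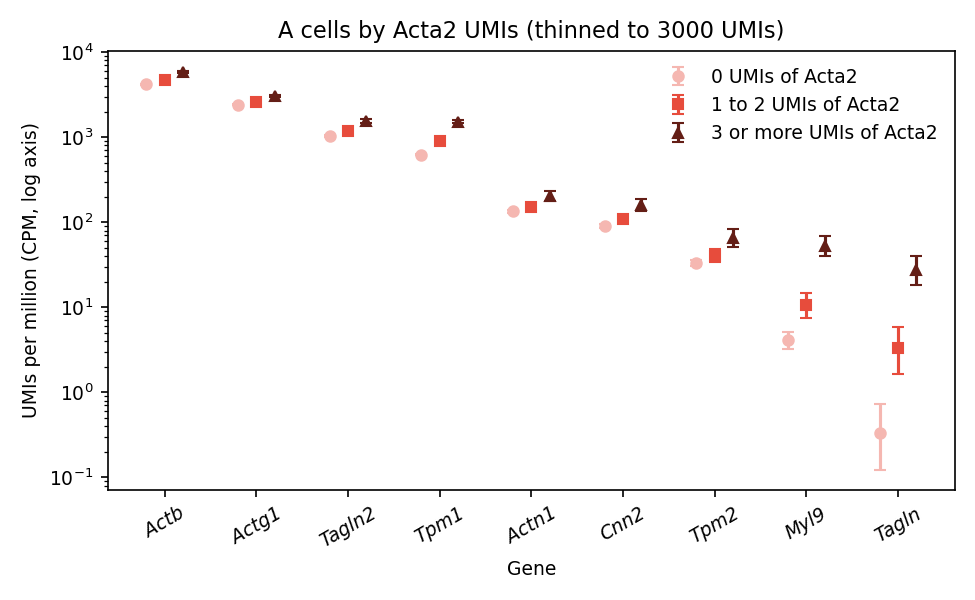
Levels of the other 9 genes in A cells with 0, 1 to 2, and 3 or more Acta2 UMIs in the thinned cell (log axis, CPM, exact Poisson intervals). Every gene is higher in the class with 3 or more, from 1.27-fold for Actg1 to 81.6-fold for Tagln.

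Markers of stromal cells had few UMIs in these 340 cells. The fibroblast and stellate list (Col1a1, Col1a2, Col3a1, Dcn, Lum, Pdgfra and Fap) had 0 UMIs over 7 genes, which allows up to 3.62 CPM, against 2.24 CPM in A cells without Acta2. The smooth muscle and pericyte list of 8 genes had 3 UMIs, of Myh11, Des and Cnn1, or 2.94 CPM (0.607 to 8.60), against 0.841 CPM (0.470 to 1.39). The endothelial list had 5 UMIs of Vwf, or 4.90 against 6.16 CPM, and the immune list 2 UMIs of Cd68, or 1.96 against 1.57 CPM. The ductal and epithelial list, with all 7 of its genes seen, had 4684 CPM against 2526 CPM in A cells without Acta2. Its genes did not all go the same way: Krt18, its leading gene, had 2259 against 947 CPM, whereas Epcam had 10.8 CPM (11 UMIs) against 35.5 CPM, a ratio of 0.304 (0.151 to 0.548). Scrublet marked 2 of the 340 cells (0.588%) and 2.07% of A cells without Acta2. Over all A cells and B cells the fibroblast list had 2.19 and 0.947 CPM, the smooth muscle and pericyte list 0.670 and 0.625 CPM, and the immune list 1.51 and 0.682 CPM. The endothelial list had 6.06 and 1.04 CPM, with 206 and 13 UMIs of Vwf, and its part in the differences between the groups was not tested. The epithelial list had 2739 and 7584 CPM, most of it from keratins. Its genes did not all go the same way here either: Epcam had 31.8 CPM in A cells and 3.16 CPM in B cells (10.1-fold), whereas Cdh1 had 31.5 and 115.8 CPM.

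Among the other muscle actins, Acta1 and Actg2 were also higher where Acta2 was, and Actc1, cardiac alpha actin, had 0 UMIs in A cells and in B cells. These genes were named after their values were seen. Acta1, skeletal muscle alpha actin, had 81.4 CPM in the 340 cells and 7.29 CPM in A cells without Acta2. Actg2, smooth muscle gamma actin, had 31.4 and 0.953 CPM. Across the groups, Acta1 had 11.6 CPM in A cells and 1.35 CPM in B cells, and Actg2 had 3.45 and 0.436 CPM.

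Pairs of genes were also compared cell by cell, as a description, since the cells share 1 library. Pearson's r of log2(1 + UMIs) was above 0 in all 45 pairs among 7406 A cells, from 0.0023 to 0.267 with a median of 0.063. It was at least 0.1 in 15 pairs. The matching shares over all gene pairs were not computed, here or for B cells. Acta2 and Tpm1 had the highest value, 0.267. Tpm1 ranked first for Acta2 among 6083 genes, whose 99th percentile was 0.0674. For Acta2, r was 0.199 with Tagln, 0.196 with Actb, 0.180 with Myl9 and 0.146 with Tagln2, and it was 0.043 with Actg1. Genes outside the set reached such values too: r with Acta2 was 0.2655 for Fn1 (fibronectin) and 0.2454 for Krt18, above that of Tagln.

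For Actg1, r was 0.215 with Actb, 0.180 with Tpm1 and 0.166 with Cnn2, so Actb and Tpm1 were among the leading partners of both Actg1 and Acta2. Rare genes met in the same cells. Acta2 and Tagln were seen together in 33 A cells, against 7.48 from the product of their shares, and Acta2 and Myl9 in 76, against 28.2. Tagln and Myl9 met in 8, against 0.734.

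In 8827 B cells r ran from -0.030 to 0.158 with a median of 0.010, and it was at least 0.1 in 3 pairs. The highest, Acta2 with Myl9, rested on 2 cells that held both. Actb with Actg1 had 0.151 and Actg1 with Cnn2 had 0.106. Among B cells the pairs of Actg1 with Actb and with Cnn2 thus stood out, and there were too few Acta2 counts for its pairs to be read.

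**Figure D4:**
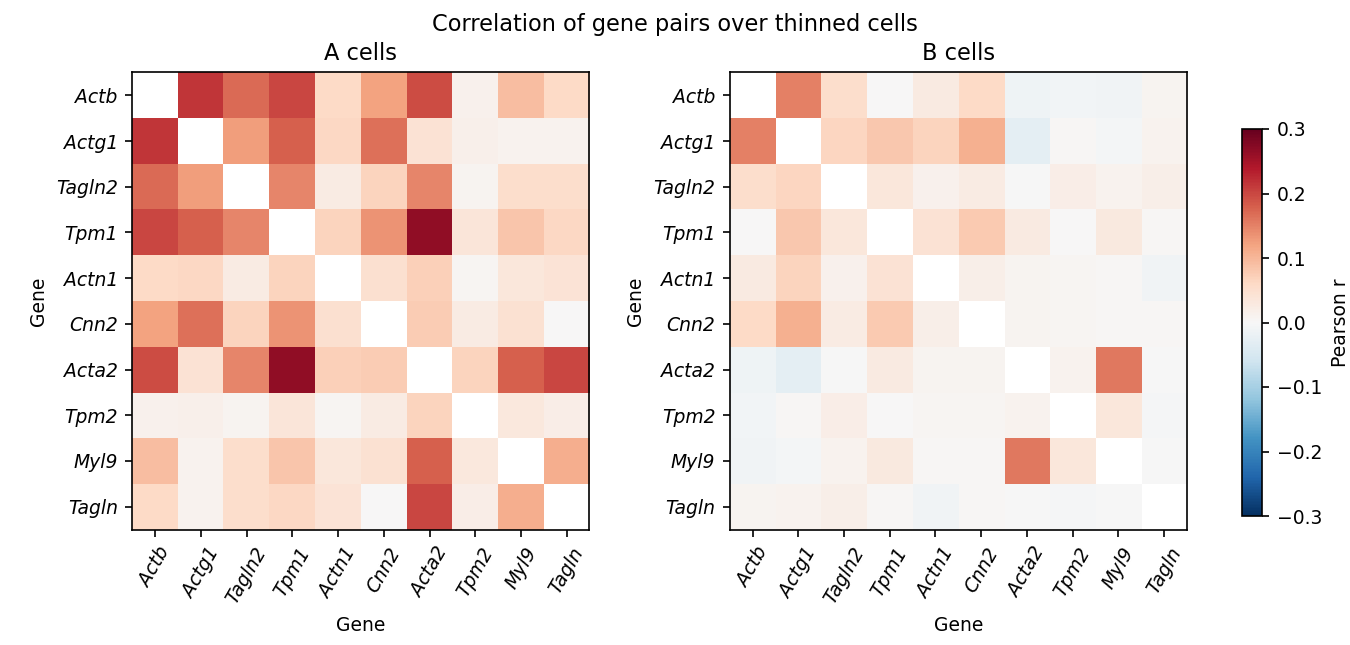
Pearson's r of log2(1 + UMIs) for each pair of the 10 genes over thinned A cells (left) and B cells (right). In A cells the Acta2 pairs with Tpm1, Tagln, Actb and Myl9 lie between 0.180 and 0.267, and in B cells 3 pairs reach 0.1.

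A contractile score (the mean z-score of Acta2, Tagln, Myl9, Tpm1, Tpm2 and Cnn2) was compared with the other genes seen in at least 5% of cells. The 5 most alike in A cells were Fn1 (fibronectin, r 0.253), Krt18 (a simple keratin, 0.250), Cald1 (caldesmon, which binds actin and tropomyosin, 0.230), Clu (clusterin, 0.199) and Csrp1 (a LIM protein of actin fibres, 0.186), against a 99th percentile of 0.0701 over 6076 genes. In B cells they were Cald1 (0.120), Csrp1 (0.079), Myl12a, Ccn1 and S100a4, the last 3 between 0.0703 and 0.0728. These B cell values are weak and the counts sparse. Cald1 and Csrp1 appear in both lists.

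A cells were further divided by genes outside the set. The Tnc side (1746 cells) was led by Tnc and Ptchd4 and the Epcam side (1262 cells) by S100g, Epcam and Tm4sf20. These division genes were chosen with earlier results of these data known. Acta2 had 225 CPM on the Tnc side, 133 CPM in the 4808 cells on neither side and 57.4 CPM on the Epcam side. The ratio of the Tnc over the Epcam side was 3.92 (3.50 to 4.39).

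Tpm1 had 838.5 against 561 CPM (1.49-fold), Tagln 3.91 against 0.636 CPM (39 and 4 UMIs) and Myl9 10.5 against 4.77 CPM. Cnn2 was 1.25-fold, Tagln2 1.20-fold, Actb 1.14-fold and Actg1 1.05-fold higher on the Tnc side, and Actg1 turned to -0.06 on the log2 scale when the division was made on thinned counts. The ratio for Actn1 was 0.983 (0.906 to 1.07). Tpm2 went the other way, with 32.9 CPM on the Tnc side and 45.97 CPM on the Epcam side. Of 8 genes tested, 1 (Acta2) was called higher on the Tnc side, where 0.481% of all genes were. None was called higher on the Epcam side, where 2.14% were. The Acta2 call is no independent support, since the division genes were chosen with earlier results of these data known.

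B cells were divided into a Krt14 side (541 cells, by Krt14 and Sprr1a) and an Areg side (4714 cells, by Areg, Btc and Cftr). Of the 7 genes tested, 0 were called either way, where 0.804% of all genes were higher on the Krt14 side and 0.201% on the Areg side. Cnn2 had 150.1 against 114 CPM (1.32-fold), Actn1 220.3 against 168 CPM (1.31-fold) and Tpm1 998 against 768 CPM (1.30-fold), all higher on the Krt14 side. Actb had a ratio of 0.968. The Acta2 counts (39 UMIs in 8 cells against 163 UMIs) gave a log2 ratio of 0.98. It turned to -1.44 without Scrublet's barcodes and to -1.80 with the division on thinned counts, so no order of Acta2 was read. Myl9, under the minimum level, had 9 UMIs in 4 cells against 10 UMIs (2.61 and 0.352 CPM), a ratio of 7.41 (2.66 to 20.3). Its log2 ratio was 2.89, with 3.03 and 4.16 under the same changes, in that order.

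**Figure D5:**
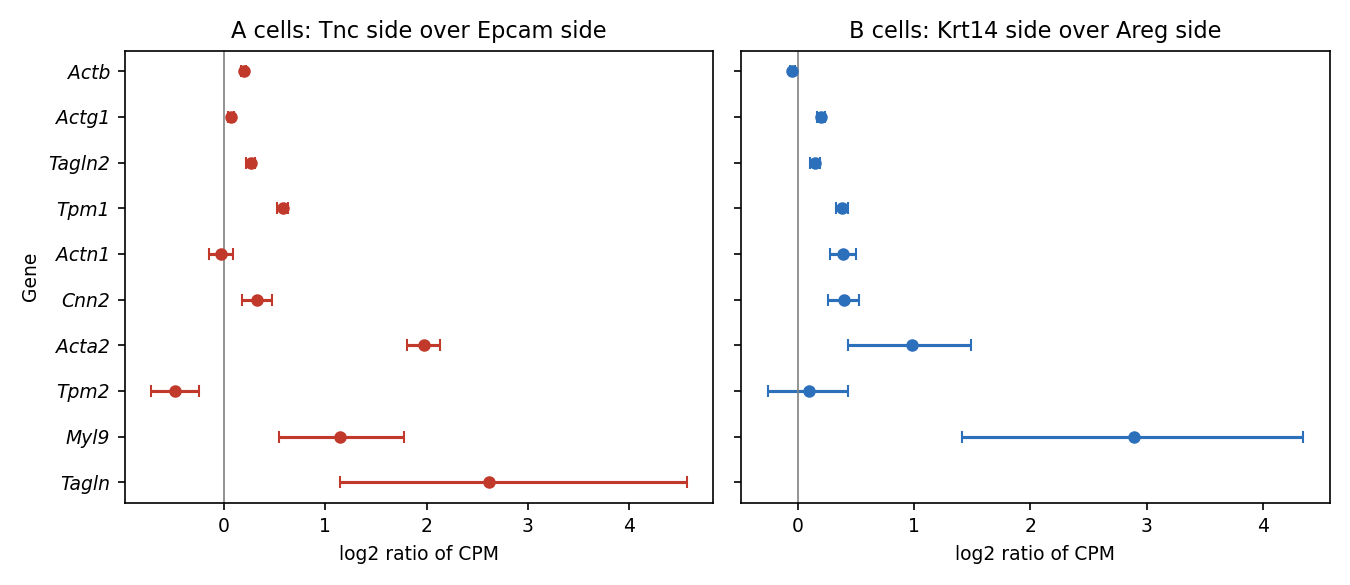
Log2 ratio of levels between the Tnc and Epcam sides of A cells (left) and between the Krt14 and Areg sides of B cells (right), with exact intervals from the counts. Acta2 lies at 1.97 in A cells, where Tpm2 lies at -0.48. Tagln has no point on the right because it had 0 UMIs on the Krt14 side.

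Levels also differed with cell state inside each group. In A cells, Acta2 had 169, 151 and 115 CPM in the cells with the lowest, middle and highest counts of a mitosis list (10 genes such as Mki67 and Top2a). Tpm1 had 759, 739 and 674 CPM, whereas Actg1 went the other way with 2341, 2538 and 2662 CPM. In B cells Actg1 had 2231.5, 2474 and 2572 CPM. By mitochondrial share, Acta2 in A cells had 185, 127 and 116 CPM, and by depth 126, 131 and 161 CPM.

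The neighbouring actin genes were read from lists, given here by their counts of genes at the minimum level and past 2-fold between A cells and B cells. The list of muscle actins and smooth muscle genes had 6 of 16 genes at that level, namely Cald1, Mylk, Tpm4, Actn4, Cnn3 and Tpm3, which are not restricted to muscle. Of these, 2 were higher in A cells (background 7.26%) and 0 in B cells (5.58%), with a median log2 ratio of 0.63 against 0.13 over all genes. Cald1 had 543 against 178 CPM (3.06-fold) and Mylk, the kinase of myosin light chains, 109.7 against 39.3 CPM (2.79-fold). Tpm4 was 1.55-fold and Actn4 1.54-fold higher in A cells, whereas Tpm3 had a ratio of A over B of 0.784. The genes of the list below the minimum level, described after their values were seen, differed in level. Smtn, which codes for smoothelin, had 590 UMIs in A cells and 654 in B cells (14.65 and 12.4 CPM). Actg2 had 139 and 23 UMIs. Myh11 had 13 UMIs in A cells and 19 in B cells, Cnn1 3 and 2, Des 11 and 4, and Lmod1 0 and 1. Mylk phosphorylates the regulatory light chains that Myl9 belongs to.

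In the filament turnover and bundling list (18 of 20 genes), 2 were higher in A cells and 2 in B cells (background 7.26% and 5.58%), with a median of -0.25. The bundling protein Fscn1 (3.27-fold) and Cotl1 (2.81-fold) were higher in A cells. The severing protein Gsn (14.1 against 105 CPM, 7.45-fold) and the capping protein Capg (2.01-fold) were higher in B cells. Fscn1 and Gsn reached the minimum level only through the group where they were high, so their calls support nothing against the background.

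Of 17 genes tested among 18 adhesion and stress fibre linkers, 1 was higher in A cells and 0 in B cells (background 7.26% and 5.58%), with a median of -0.05. It was Palld, a scaffold of stress fibres, at 1217 against 397 CPM (3.07-fold). Csrp1 was 1.89-fold and Fermt2 1.86-fold higher in A cells, and Ezr, which links actin to the membrane, 1.97-fold higher in B cells.

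The list of SRF regulators and targets (8 of 12 genes) had 1 gene higher in A cells and 4 in B cells (background 7.26% and 5.58%), with a median of -0.86. Thbs1 was higher in A cells at 100.6 against 17.7 CPM (5.68-fold), and it reached the minimum level only through A cells. Those higher in B cells included Ankrd1 (52.2 against 155.7 CPM, 2.98-fold), Fhl2 (2.81-fold) and Ccn2 (2.77-fold). Fhl1, under the minimum level and named after its values were seen, had 38 UMIs in A cells and 15 in B cells, a ratio of 3.32 (1.78 to 6.496). The list thus held genes on both sides. The coactivators themselves differed less: Mrtfa had 49.3 and 52.3 CPM and Mrtfb 61.8 and 41.8 CPM, both named after their values were seen.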

How the data were processed

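Gene expression was measured by 3′ droplet sequencing in 1 pooled library. The authors deposited whole-number UMI counts per gene and barcode, with no normalization. They were made with Cell Ranger 8.0.1 per the file headers, on GRCm39 per the submitters' processing notes. The annotation and any cell filter of the authors are not given in the sources used here.

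Barcodes under 2000 UMIs, under 1000 genes or above 15% mitochondrial UMIs were removed, which left 21361 of 22178. No clone map was used. The A and B rule leaves out barcodes with markers of both groups. Scrublet (in scanpy 1.11.5, expected rate 0.08) was an alternative for doublets. It marked 778 barcodes, or 3.64% of those that passed.

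UMIs were summed over each group and scaled to CPM, and genes with at least 20 CPM as the mean of both groups were tested for a ratio past 2-fold. Shares and correlations used cells thinned to 3000 UMIs, which left out 410 A cells and 109 B cells. Each group was also cut into 3 sets by depth, mitochondrial share and a mitosis list. Work was done in Python 3.11.15 (numpy 2.4.6, scipy 1.17.1, pandas 2.3.3, matplotlib 3.10.9), and the steps were tested on simulated data. Transcript ends were compared in GENCODE M21 (GRCm38).

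The 10 genes, the lists and the divisions were chosen with earlier results of these data known. The genes named were the 10 members, up to 4 genes with the largest ratios per list, the 5 most like the contractile score in each group, and the leading marker of each cell type. Others are marked as named after their values were seen. Alternatives were other cell filters, doublet removal, marker minimum, thinning, scaling, averaging, cell cycle, fold threshold and minimum level. Some list genes that the rule picks, and 1 of the lists, are not reported here.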

Additional observations from a re-analysis of the deposited data

Results flagged for a closer look

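Cells left out of the comparison carried Acta2 above the limit that a count of 0 allows. The 464 cells with markers of both groups had 81.1 CPM of Acta2 (321 UMIs, exact Poisson interval 72.5 to 90.5), at a median depth of 8490.5 UMIs. That level lies between those of A cells (144 CPM) and B cells (5.89 CPM). The 4145 cells with too few markers had 147 CPM (2728 UMIs, 141.5 to 152.6), at a median depth of 4166 UMIs. The limits that a count of 0 allows, taken as 3 UMIs, were 0.758 and 0.162 CPM. The rule gave these cells no group.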

How the results depend on the processing

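These alternatives all reuse 1 library, so the spread between cultures is unknown. No paired analysis was possible because 1 library was analysed, with no replicate of either group. The divisions on thinned counts and without Scrublet's barcodes were chosen after seeing the data. The log2 ratio of A over B ran from 4.43 to 5.78 for Acta2, from -0.66 to -0.48 for Actb, from -0.34 to -0.18 for Tpm1 and from 0.55 to 1.06 for Tpm2, with the end at 5.78 in cells with 0 UMIs of the mitosis list. Of 88 alternative log2 ratios, 55 lay inside the counting interval of the reported value. Tagln had no ratio with at least 4 marker UMIs or with 0 UMIs of the mitosis list, where B cells held 0 of its UMIs. Correlations depended on depth: with other thinning or none, 94 of 180 moved by more than 0.02, and Acta2 with Tpm1 in A cells had 0.339 at 5000 UMIs. Without thinning, 18 of 20 shares of cells left their interval. Counts of called genes and background shares stayed within 1.5 times in 131 of 146 cases. Of the other 15, those of lists reported here follow, and beyond what the construction of a setting shows, the cause was not tested.

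Genes of the set called higher in A cells numbered 2 with a 1.5-fold threshold, 2 in cells with 0 UMIs of the mitosis list and 3 with any gene that had a UMI in both groups. The background share called higher in A cells was then 19.04%, 11.29% and 17.89%. That called higher in B cells was 11.45% with the 1.5-fold threshold and 13.38% with any gene that had a UMI. In cells with 0 UMIs of the mitosis list, the turnover list had 4 genes higher in A cells and 1 in B cells, and the adhesion list 3 higher in A cells. The turnover list had 1 gene higher in B cells without mitochondrial and ribosomal-protein genes in the total. The adhesion list had 1 gene higher in B cells without Scrublet's barcodes and 2 when centred on the median gene.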

Other observations

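Some cytoskeletal genes under the minimum level differed widely between the groups and were named after their values were seen. Myh10, a heavy chain of non-muscle myosin II, had 2.81 CPM in A cells (113 UMIs) and 32.3 CPM in B cells (1703 UMIs), 11.5-fold higher in B cells (interval 9.50 to 14.0). Myh14, another heavy chain of non-muscle myosin II, had 1.81 CPM (73 UMIs) and 0.152 CPM (8 UMIs), 11.96-fold higher in A cells (5.76 to 28.7). Myh9, the third such heavy chain, had 265 and 284 CPM. Tns1, which links actin to integrin adhesions, had 4 UMIs in A cells and 242 in B cells. Vil1, the bundling protein of microvilli, had 22.1 and 7.49 CPM, 2.96-fold higher in A cells.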
